A study of Homo sapiens with 2 samples.

Results

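Notch signalling passes a message between touching cells. A ligand of the Jagged or Delta-like family on one cell binds a Notch receptor on its neighbour, the sheddase ADAM10 (ADAM17 in some settings) cuts the receptor outside the membrane, and gamma-secretase then cuts it within the membrane. The freed intracellular part enters the nucleus, joins the DNA-binding protein RBPJ and a Mastermind coactivator, and turns on target genes such as those of the HES and HEY repressors. In stratified squamous epithelium the pathway is known for promoting differentiation, and NOTCH1 is recurrently inactivated by mutation in squamous cancers of the head and neck.

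10 genes of this pathway were followed in an experiment on the microRNA let-7i. They are the receptors NOTCH1, NOTCH2 and NOTCH3, the ligands JAG1 and JAG2, the receptor glycosyltransferase LFNG, the sheddases ADAM10 and ADAM17, and the target genes HES1 and HEY1. The members were taken by gene symbol, as every probe set whose platform annotation carries 1 of these symbols alone, which gave 29 of 54675 probe sets. 1 more is annotated to NOTCH2 together with other genes and was left out.

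The samples were 2 cultures of OECM1, an established line of head and neck carcinoma kept in RPMI medium with fetal bovine serum. The control carried the pmR-mCherry empty vector, and the other culture was stably transfected with pmCherry-let7i, a vector for let-7i that shares the red fluorescent protein mCherry with the control. Whether either transfectant was a clone or a pool of cells, and which promoter drives the insert, is not stated in the labels. The values say how the transcripts of the pathway stood in cells with the let-7i vector next to cells without it. With 1 array a group there is no replicate check and no p-value, and the culture and the vector cannot be told apart.

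The agent of the experiment is shown first, since every value below contrasts cells with and without its vector. The mature strand lies at chr12:62603691-62603712 on the plus strand (GRCh38.p14, RefSeq), and the capitals mark the seed, bases 2 to 8, through which a microRNA pairs with its targets. The same seed stands in 11 of the 2370 mature microRNA names of the RefSeq table, the other let-7 family members and miR-98-5p among them.
hsa-let-7i-5p: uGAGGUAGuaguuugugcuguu

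The promoter windows below are shown because HES1 is the member whose regulation by Notch is best known. In a list of 10 other HES, HEY and feedback genes, 4 carry the same letters (HES4, HES5, HEY2 and HEYL). GTGGGAA, or its reverse complement TTCCCAC, is a form of the RBPJ binding motif. It was searched on both strands in RefSeq windows from 250 bases before to 50 bases after each start. It was found in 6.25% of all 35116 windows of that length, and the shorter TGGGAA, which is contained in it, in 24.0%. Among the members a window was found for all but HEY1, and HES1 alone held GTGGGAA. The windows of NOTCH1, NOTCH2, NOTCH3, JAG1, JAG2, ADAM10 and ADAM17 held neither form, and LFNG held only the shorter one. Capitals mark the 7 letters of the motif, and each sequence reads 5′ to 3′ along its gene. They lie at chr3:194136041-194136091 (plus strand) for HES1, chr1:1000146-1000196 (minus strand) for HES4, chr1:2530316-2530366 (minus strand) for HES5 and chr1:39639793-39639843 (minus strand) for HEYL, all in GRCh38.p14.
HES1: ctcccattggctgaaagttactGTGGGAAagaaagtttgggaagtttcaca
HES4: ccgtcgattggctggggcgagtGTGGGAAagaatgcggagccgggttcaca
HES5: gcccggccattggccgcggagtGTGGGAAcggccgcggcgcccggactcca
HEYL: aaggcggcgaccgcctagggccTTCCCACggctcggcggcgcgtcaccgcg
The motif starts 85 bases before the start of HES1, 77 bases before that of HES4, 81 before that of HES5 and 178 before that of HEYL. HES5 holds a further match, of the reverse complement, 224 bases before its start. HEY2 holds 2 matches, starting 213 and 4 bases before its start, and is not printed. A match is a description of these letters and not a measured site. Of the 4 genes printed only HES1 and HES4 had a signal above the floor, and their values are given with the targets.

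Signals are MAS5 values on a linear scale. As floor served the median of each array, 88.0 (empty vector) and 79.5 (let-7i). Signals under it were raised to it, which turns the ratio into a bound, and no ratio was formed where both signals were under it. Log2 ratios are let-7i vector over empty vector. Probe noise, the spread of 1 probe set around its gene, was taken from 5807 genes with a pair of measured probe sets. Its SD was 0.25, falling from 0.34 at the dimmest quartile to 0.15 at the brightest, and it holds no variation between cultures. Signals of different probe sets were not set against each other, since probes bind with different strength.

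Of the 29 member probe sets 19 were above the floor on both arrays, 3 on 1 array and 7 on neither. Of the 22 with a ratio 12 were higher and 10 lower with let-7i. Only 1 was past 2-fold, against 2.37% of all probe sets with a ratio, and 3 were past 1.5-fold, against 10.7%. The members' shares are near the background. In bulk RNA, fewer cells with a transcript and less of it per cell cannot be told apart. More than 2 SD of probe noise separated the arrays in 4 of the 22, against 13.3% of all. These were NOTCH2 212377_s_at, HES1 203394_s_at and the bounds of LFNG 228762_at and HEY1 218839_at. Probe noise was taken from probe sets above the floor on both arrays, whereas these 2 bounds have 1 signal under it. They were given the SD of the dimmest quartile, and noise at such signals was not measured. The 13.3% also includes such bounds. Among 12284 genes with a ratio the median size of the log2 ratio, without its sign, was 0.19, and it was 0.27 over the 9 members with one.

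**Figure D1:**
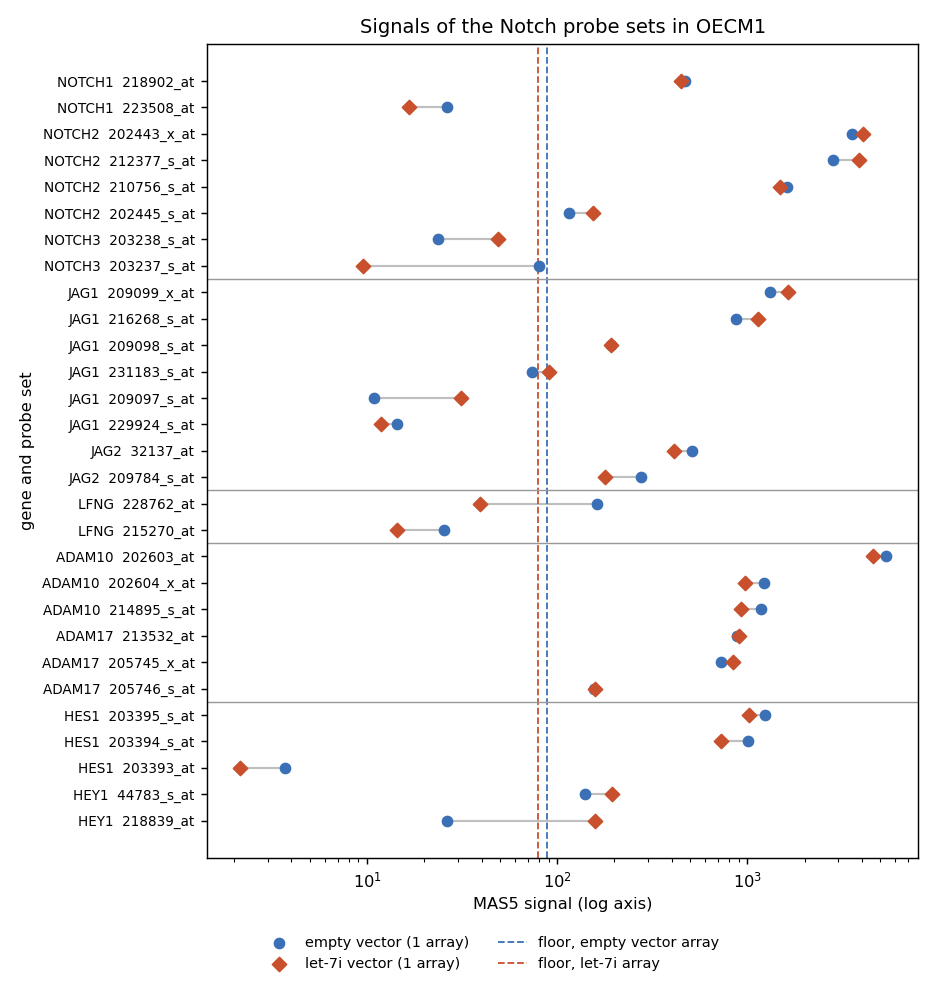
MAS5 signal (log axis) of the 29 member probe sets on the empty vector array (circles) and the let-7i array (diamonds), with each array's floor as a dashed line. In most probe sets above the floors both signals lie close together, while LFNG 228762_at and HEY1 218839_at span the floors in opposite directions.

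The receptors showed no common direction. NOTCH1, the receptor best known in keratinocytes, read 472 (empty vector) and 449 (let-7i) in the probe set 218902_at, for a log2 ratio of -0.06. Pairs of signals are given in this order throughout. That difference is smaller than the probe noise at this signal (SD 0.25). Its other probe set, 223508_at, stayed below both floors (26.4 and 16.7).

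NOTCH2, a receptor present in many adult tissues, was higher with let-7i in 3 of its 4 probe sets. In the brightest, 202443_x_at, it read 3537 and 4062 (log2 ratio 0.21). In 212377_s_at it read 2802 and 3872 (0.48), a difference of 3.11 times the probe noise there. In 202445_s_at, a dim one, it read 115 and 154 (0.43). The fourth, 210756_s_at, pointed the other way with 1617 and 1482 (-0.11), within the noise. The 4 probe sets of NOTCH2 had a mean log2 ratio of 0.25 with an SD of 0.27 among them. Probe sets of this gene can take up signal from near-identical NOTCH2NL copies, so its level is uncertain.

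NOTCH3, a receptor known from vascular smooth muscle and also expressed in some carcinomas, stayed below both floors in both of its probe sets. It read 23.5 and 48.6 in 203238_s_at and 80.0 and 9.54 in 203237_s_at. These point in opposite directions, and no ratio is given.

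The ligands differed from each other in direction. JAG1, the Jagged ligand of many epithelia, read 1309 and 1633 in 209099_x_at (log2 ratio 0.33) and 869 and 1138 in 216268_s_at (0.40). Both are between 1 and 2 times the probe noise. A dimmer probe set, 209098_s_at, gave 191 on each array (0.01, and -0.002 without centring). In 231183_s_at JAG1 read 74.1 and 90.0, the former under the floor, which leaves a bound of 0.05. The remaining 2 probe sets read between 10.9 and 31.2, below both floors.

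JAG2, the related ligand, was lower with let-7i in both probe sets. It read 514 and 412 in 32137_at (log2 ratio -0.31) and 277 and 179 in 209784_s_at (-0.62). The latter is past 1.5-fold and 1.84 times the noise at that signal. By its brightest probe set JAG2 stood at percentile 16.3 of all gene ratios and JAG1 at percentile 87.0.

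LFNG, or lunatic fringe, adds a sugar to O-fucose on the receptors' EGF repeats and thereby shifts their response towards Delta-like ligands. It was the only member past 2-fold. Its probe set 228762_at read 161 and 39.5, the latter below the floor, so that LFNG was at least 2.01-fold lower (a log2 bound of -1.005). The gene lay at percentile 1.31 of all gene ratios, and 1.32% of all genes were at least 2-fold lower. The bound was -0.89 with lowess centring and -0.90 after quantile normalization, short of 2-fold. Lowering the floor to the 25th percentile gave -1.999, and raising it to the 65th left LFNG without a ratio. The other probe set, 215270_at, was dim on both arrays (25.5 and 14.4), so the difference rests on 1 dim probe set.

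The sheddases differed little between the arrays. ADAM10, the protease that makes the first cut of ligand-bound receptors, was lower in all 3 probe sets. It read 5360 and 4567 in 202603_at (log2 ratio -0.22), 1217 and 972 in 202604_x_at (-0.31), and 1183 and 925 in 214895_s_at (-0.34). The 3 ratios of ADAM10 had an SD of 0.06, and each is between 1 and 2 times the probe noise. In its brightest probe set ADAM10 was 1.16-fold lower.

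ADAM17, which also sheds TNF and ligands of the EGF receptor, read 883 and 899 in 213532_at (log2 ratio 0.04). It read 724 and 839 in 205745_x_at (0.23), and 157 and 158 in 205746_s_at (0.02). The largest of the ADAM17 ratios is 1.09 times the noise.

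The target genes went in opposite directions. HES1, a repressor and the classical Notch target, was lower with let-7i in both probe sets above the floor. It read 1236 and 1013 in 203395_s_at (log2 ratio -0.27, 1.21-fold lower) and 1010 and 731 in 203394_s_at (-0.45, 1.37-fold lower). The latter is 2.18 times the probe noise. Its remaining probe set, 203393_at, had almost no signal (3.72 and 2.14).

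HEY1, a related repressor that also binds DNA as a dimer of basic helix-loop-helix proteins, was higher with let-7i in both of its probe sets. In 44783_s_at it read 140 and 193, and the log2 ratio of 0.48 stood at percentile 93.1 of all genes. In 218839_at it read 26.5, below the floor, and 158, so that HEY1 was at least 1.81-fold higher there (a log2 bound of 0.86). Both sets are dim, and the noise SD used for them, 0.34, is that of the dimmest quartile.

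**Figure D2:**
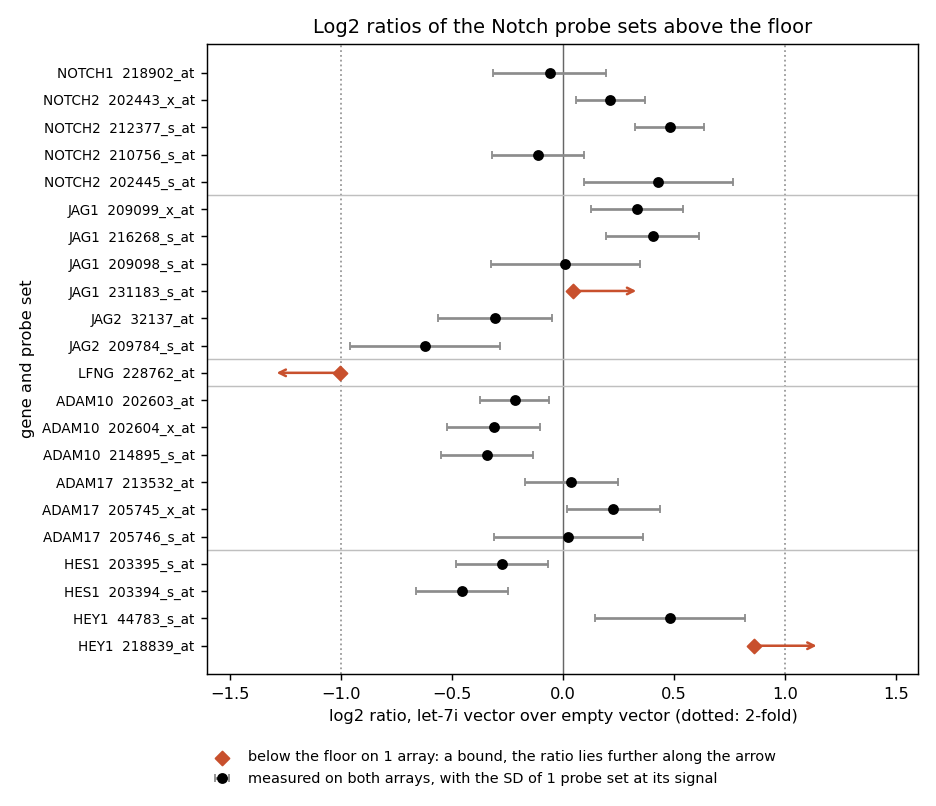
Log2 ratio (let-7i vector over empty vector) of the 22 member probe sets above the floor on at least 1 array, with bars of 1 SD of probe noise at that signal (no culture variation) and dotted lines at 2-fold. JAG2, ADAM10, HES1, LFNG and NOTCH1 lie to the left in every probe set shown. JAG1, HEY1 and ADAM17 lie to the right in every one. NOTCH1 and some probe sets of JAG1 and ADAM17 lie close to 0. Diamonds are bounds, drawn without bars, whose ratio lies further along the arrow.

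Probe sets of 1 member mostly pointed the same way. Of 7 members with a ratio in more than 1 probe set, 6 had all of them in 1 direction, NOTCH2 being the exception. Over all 6279 such genes the share was 49.9%, and it was 63.2% for genes with 2 probe sets, 42.8% with 3 and 29.5% with 4. Probe sets of a gene share the RNA and the array, so this describes the measurement of these cultures and is no replicate of the condition. Without centring, 1 of the 22 signs turned (JAG1 209098_s_at), which made JAG1 a further exception. None turned with lowess centring or after quantile normalization.

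**Figure D3:**
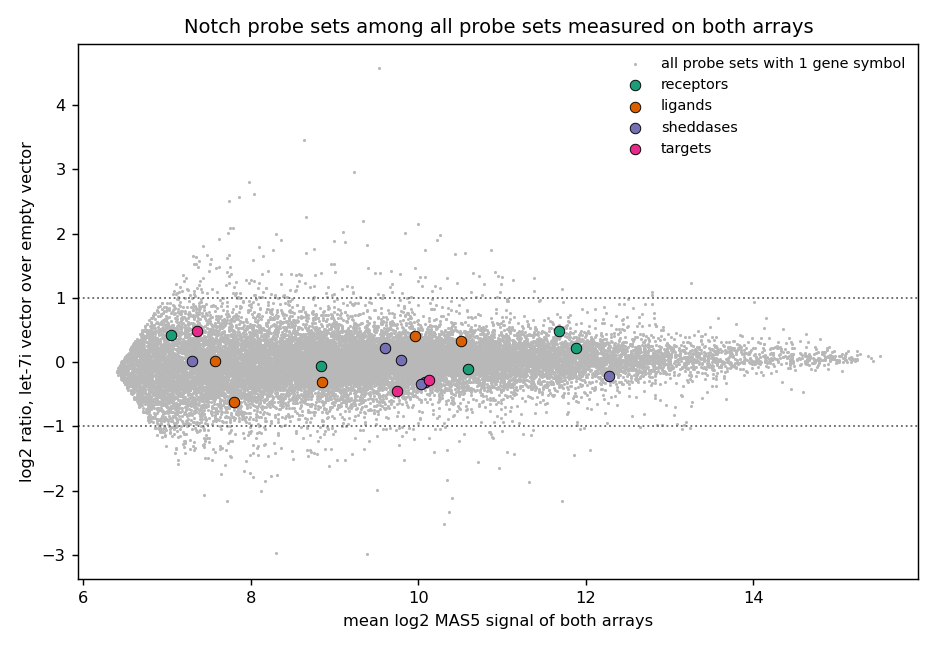
Log2 ratio against mean log2 MAS5 signal of both arrays for all probe sets with 1 gene symbol measured on both arrays (grey) and the 19 member probe sets among them (coloured by role), with dotted lines at 2-fold. The member probe sets lie inside the cloud, and none of the 19 reaches 2-fold.

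The rest of the pathway was read from 8 lists holding 87 further genes, of which 66 had a ratio. By their brightest probe sets 35 were higher and 31 lower, 1 was past 2-fold in each direction (1.15% of all genes were past it upwards and 1.32% downwards), and their median log2 ratio was 0.04, against 0.01 over all genes. The members had a median of -0.06. The signs of APH1A, KAT2B, NRARP and KLF4, all close to 0, turned under at least 1 of the other scalings.

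Among other receptors and ligands 4 of 10 genes had a ratio. DNER, a neuronal transmembrane protein proposed as a Notch ligand, read 662 and 1312 in 1 probe set. Its log2 ratio of 1.001 was 0.99 under each of the other scalings and then short of 2-fold. DLK2, a non-classical relative of the ligands, was below the floor with let-7i (110 and 60.4, a bound of -0.46). The Delta-like ligands DLL1, DLL3 and DLL4, named after their values were seen, read below both floors.

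Of the genes that glycosylate or process the receptors 4 were higher and 1 lower. RFNG, or radical fringe, a relative of LFNG, read 489 and 323 (log2 ratio -0.59, 1.501-fold lower). POFUT1, which adds the O-fucose that fringe enzymes extend, gave 577 and 642 (0.17). MFNG, or manic fringe, named after its values were seen, read below both floors (56.1 and 48.6). LFNG and RFNG, the fringe genes with a ratio, were both lower with let-7i, each in 1 probe set. The value of LFNG was a bound, and the SD of probe noise at the signal of RFNG was 0.34.

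Gamma-secretase genes were mostly lower. By the brightest probe set 4 of 5 genes were lower, with a median of -0.20, whereas 51.4% of all genes with a ratio were higher. By probe set 8 of 9 were lower, whereas 48.8% of all probe sets with a ratio were higher. These 9 belong to the same 5 genes, so they are not independent of each other. PSEN2 and APH1B were named after their values were seen. PSEN2, at -0.18, lay within the probe noise at its signal (SD 0.34), and APH1B, at -0.20, was a bound from 1 dim probe set. No gene of the complex was past 1.5-fold. PSENEN, a subunit needed to activate the protease, read 1512 and 1022 (log2 ratio -0.55). NCSTN, nicastrin, the subunit with the large extracellular part, read 1982 and 1521 (-0.37), with a bound of -0.50 in a dim further probe set. The brightest probe set of APH1A, named after its values were seen, gave 0.02, and between -0.02 and 0.01 under the other scalings, and its other probe sets gave -0.50 and -0.21.

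Of the genes for endocytosis and ubiquitin ligases 6 were higher and 9 lower by the brightest probe set (median -0.02). By probe set 9 were higher and 23 lower (median -0.11), a count in which several probe sets of 1 gene are not independent. AAK1, a kinase of endocytosis named after its values were seen, ranged from a bound of -1.42 in a dim probe set to 0.11 in its brightest. NEURL1B, a ligase that promotes ligand endocytosis, read 1570 and 947 (log2 ratio -0.72). NEDD4, a ligase that acts on many membrane proteins, read 688 and 1133 (0.73).

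The nuclear complex was close to level, with 6 genes higher, 3 lower and a median of 0.10. RBPJ, the DNA-binding partner of the receptor, named after its values were seen, gave 0.17 and 0.33 on the log2 scale in the 2 probe sets above the floor. The Mastermind coactivators differed in direction, with MAML2 at 728 and 545 (log2 ratio -0.40, and -0.95 in a dimmer probe set) and MAML3 at 240 and 307 (0.37).

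Of the corepressors 5 were higher and 6 lower (median -0.03). TLE2, a Groucho protein that HES repressors recruit, was 1.90-fold lower, reading 911 and 474 in 40837_at (-0.93) and 466 and 325 in 204431_at (-0.50). TLE4, of the same family, read 1771 and 1263 (-0.47), and 4 of its 5 probe sets were lower and 1, a dim one, higher.

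Among the other HES, HEY and feedback genes 5 of 10 had a ratio, 3 higher and 2 lower. HES4, a relative of HES1, read 1686 and 1100 (log2 ratio -0.60) in its 1 probe set. HES5, HEY2 and HEYL, which hold the motif as HES1 and HES4 do, read below both floors. Other carriers with a ratio, all named after their values were seen, differed in sign but little in size. By its brightest probe set RBPJ stood at 0.17, L3MBTL3 at 0.22, CTBP2 at -0.03 and SPEN at -0.12. Only the value of RBPJ is larger than the SD of probe noise. That SD is 0.15 at the signals of RBPJ, CTBP2 and SPEN and 0.34 at that of L3MBTL3. RBPJ, L3MBTL3 and CTBP2 hold the motif in only some of their windows, and in SPEN it does not lie before the start. Whether genes with the motif share a direction was not tested. BHLHE40, a related repressor that responds to many stimuli, was higher with ratios of 0.28 and 0.67 in 2 probe sets. NRARP, a direct target that feeds back on the receptor complex, named after its values were seen, read 377 and 373, with a log2 ratio of -0.002 whose sign turned with the scaling.

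Of 12 other reported targets with a ratio 8 were higher and 4 lower (median 0.18). ID3, an inhibitor of basic helix-loop-helix proteins that BMP signals also induce, was 2.63-fold lower (1908 and 719, log2 ratio -1.39) in its 1 probe set. SNAI2, or Slug, a repressor of epithelial genes, read 5191 and 9663 (0.91). These genes answer to many other pathways.

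**Figure D4:**
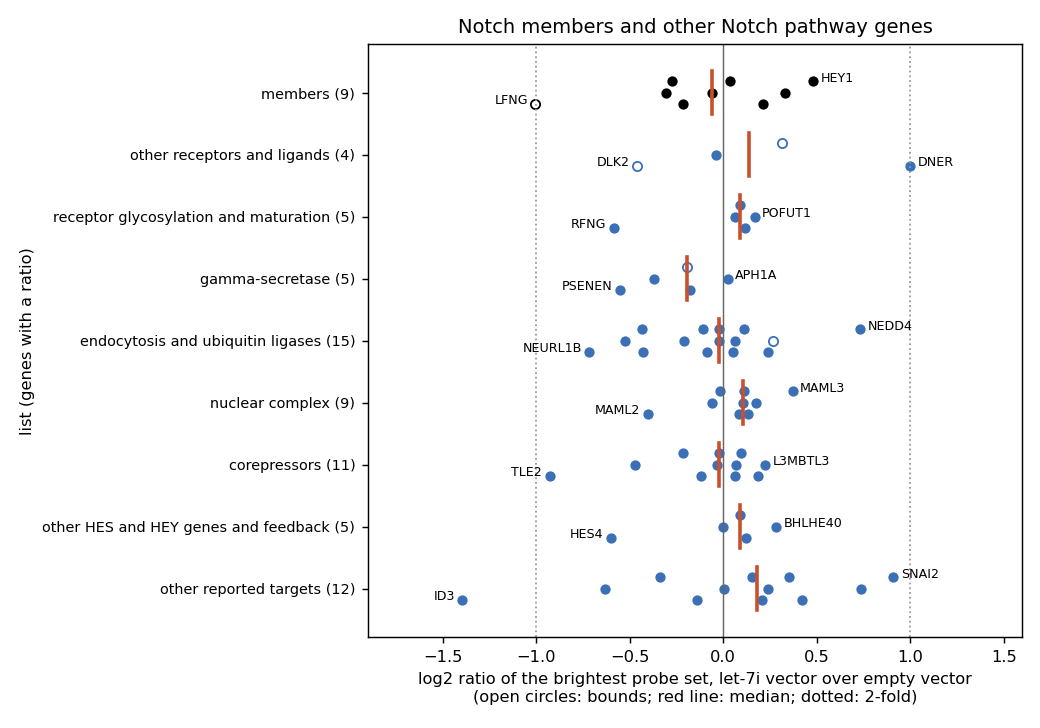
Log2 ratio of the brightest probe set of each gene (let-7i vector over empty vector) for the 9 members and the 66 other pathway genes with a ratio, by list, with the median of each list as a red line, bounds as open circles and 2-fold as dotted lines. The medians lie between -0.20 and 0.18, and LFNG, DNER and ID3 reach 2-fold.

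The label of the line was checked against marker lists, by the brightest probe set of each gene. Of the squamous epithelial markers CDH1, SFN and DSP were bright (signals between 5090 and 16192), whereas KRT5, KRT14 and PKP1 were below the floor on both arrays. Of 8 endothelial markers 1 was above the floor, PECAM1, while VWF, CDH5 and KDR were below it. Of 8 mural and smooth muscle markers 4 were above it on at least 1 array, and the summed signals of those 4 were 658 and 682. Of 8 fibroblast markers 3 were above it, all higher with let-7i (log2 ratios of 0.27 to 0.99), with summed signals of 739 and 1129. A dimmer probe set of THY1 was also above it on at least 1 array, while COL1A2, COL3A1 and PDGFRA were below it. In the mural and smooth muscle list a dimmer probe set of MYH11 was above it on at least 1 array too. Of 8 leukocyte markers 4 were above it, with summed signals of 949 and 486, a difference that lies mostly in HCLS1 (432 and 30.6, the latter below the floor). PTPRC and CD14 were below it. Their part in the Notch values was not tested.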

How the data were processed

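The deposited values are 1-colour signal intensities (biotin-labelled cRNA) on a linear scale, computed by MAS5 per the submitters' processing notes, with version and settings not stated there. Both arrays share a mean of 500.1 once 2% of values are cut from each end, so a difference in total RNA per cell is not retained. The table has no detection calls, and the number of arrays limits the precision.

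Log2 ratios were formed per probe set and centred on the median of those with 1 gene symbol that reached both floors (a shift of -0.01). Of 54675 probe sets 41097 have 1 symbol in the platform annotation and were used, 1801 have several and 11777 are unnamed here. IDs of 41043 matched RefSeq (GRCh38.p14), and no symbol changed. A gene stands for its probe set of highest mean log2 signal. Genes named beside the members are the 2 with the largest ratio in each list and those past 2-fold, unless said otherwise. Without replicates no test was made, and calls go by size. The members and lists were chosen with earlier results of these data known. The code was tested on simulated data. Settings varied were the centring (none, or lowess with fraction 0.3 and 3 iterations), quantile normalization, the floor (25th or 65th percentile), averaging a gene's probe sets, dropping shared probe sets (_s_at, _x_at), and the threshold (1.5-fold, 3-fold). Software: Python 3.11.15 with NumPy 2.4.6, pandas 2.3.3, statsmodels 0.14.6, and for plots Matplotlib 3.10.9.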

Additional observations from a re-analysis of the deposited data

How the results depend on the processing

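The single 2-fold call among the members, that of LFNG, depended on the settings. By probe set and by brightest probe set alike the count was 1, and it was 0 with lowess centring, after quantile normalization, with the floor raised to the 65th percentile and at a threshold of 3-fold. With the floor lowered to the 25th percentile, where signals of 22.2 and 19.0 count as measured, it was 4 by probe set and 2 by gene, NOTCH3 being added with a log2 ratio of 1.08 that its other probe set contradicts. At 1.5-fold it was 3 by probe set. Of the other pathway genes 2 were past 2-fold. The count was 1 without centring, with lowess centring, after quantile normalization, with the higher floor and without shared probe sets, 6 with the lower floor, 10 at 1.5-fold and 0 at 3-fold. The median of the members lay between -0.14 and 0.01 over the alternatives and that of the pathway genes between -0.01 and 0.06. Each member with a ratio kept its sign under each alternative that gave it one. NOTCH2, JAG1 and HES1 have no value without shared probe sets, and HEY1, LFNG and NOTCH3 none with the higher floor. Without shared probe sets HEY1 was 0.86, from its dim probe set. Dim signals near the floor limit LFNG, HEY1 and NOTCH3.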

Other observations

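Genes of keratinocyte differentiation that are often read beside Notch gave few values. Of 6 genes of that list with a probe set of their own, 4 stayed below both floors, among them IVL, the cornified envelope precursor involucrin (55.5 and 50.4). KRT10, a keratin of the suprabasal epidermis, had signals of 7460 and 6724, with log2 ratios between -0.14 and -0.08 in 3 probe sets. KRT1, its usual partner, read 89.3 with the empty vector, just above the floor, and 12.3 with let-7i, which leaves a bound of -0.16.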
